A study of Mus musculus with 2 samples.

Results

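Tac1, Calca, Calcb, Npy, Vip and Crhbp, 5 neuropeptide genes and the gene of a secreted peptide-binding protein, were examined in ureters of mouse embryos in which Rbpj had been targeted for deletion in the mesenchyme. They are 6 of 31791 gene names on the array, measured by 7 of 39429 probes with 1 spot each. They were picked by gene name in the scanner files, with their ratios between Rbpj-cKO and control ureters already known. The ratios of the 6 genes below are therefore descriptions, and no test is given for them.

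The study used 2 two-colour Agilent arrays on total RNA from ureters dissected at E18.5, the day given by the labels. Rbpj-cKO embryos had the genotype Tbx18(cre/+);Rbpj(fl/fl), and control embryos had the genotype Rbpj(fl/?), with the other allele not given and no cre listed. All embryos were of the NMRI strain. The male array set RNA of male Rbpj-cKO ureters (red, AlexaFluor647) against RNA of male control ureters (green, AlexaFluor555), and the female array set female Rbpj-cKO (green) against female control (red). The recombinase was driven from Tbx18, a gene of the undifferentiated ureteric mesenchyme, so Rbpj-cKO embryos also had 1 Tbx18 allele with a cre insertion, which the labels do not list for controls. RBPJ is the transcription factor that carries Notch signals to DNA. The number of embryos behind each RNA, and any pooling, is not given in the labels. Sex, dye orientation and the pair of RNAs change together between the arrays, so their parts in a difference between the arrays cannot be told apart. In whole ureters, fewer cells of a type and less RNA per cell also cannot be told apart.

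Neuropeptides are made as precursors, cut by proteases inside dense core vesicles and released from nerve endings or neuroendocrine cells onto receptors that mostly couple to G proteins. In the ureter, sensory fibres carry tachykinins and calcitonin gene-related peptide, which act on contraction and relaxation of the smooth muscle, and sympathetic fibres carry neuropeptide Y beside noradrenaline. The cell bodies of these fibres lie in ganglia outside the ureter, so that much of a nerve's peptide mRNA is not in the dissected tissue. Chromaffin cells, the catecholamine-releasing cells of the adrenal medulla and of paraganglia, also make neuropeptide Y.

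Markers of the labelled tissue were present on both arrays. All 10 urothelial and all 8 smooth muscle markers examined were measured, whereas Nphs1, Slc12a1, Slc34a1 and Umod, markers of nephron epithelium, were well above background in at most 1 channel. The other kidney markers measured, the nephron progenitor genes Six2 and Cited1, were well above background in all 4 channels, with ratios of 1.48 and 0.86 for Six2 (limma adjusted p = 0.102) and -0.70 and -0.49 for Cited1 (adjusted p = 0.936). The part of kidney tissue in the member values was not tested. The share of probe spots well above background was 66.8% to 71.1% in the 4 channels, with no saturated spot. Ratios of Rbpj were -1.58 (male) and -0.93 (female) on the log2 scale, with a mean of -1.25 and a limma adjusted p of 0.0764, and no source used here says whether its probe lies in the deleted part. Of 20994 features tested, 26 passed limma's test at an adjusted p of 0.05 (0.124%), of which 8 were higher (0.0381%) and 18 lower (0.0857%).

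The probes are shown because the identity of each value rests on them, above all for Calca, where the probes of 2 transcript variants gave different ratios. Each line gives 30 of the 60 probe bases, 5′ to 3′, as deposited. Capitals mark AATAAA, the canonical polyadenylation signal, which stood in 1 of the 3 Calca and Calcb probes, from base 35 of the 60.
Tac1: gtttcaatgtaattctctggtcttcagtca
Calca, transcript variant 2: gactctgtatccAATAAAcatgacagcatg
Calca, transcript variant 1: aagaatggtatctgaaatccccagtgggtg
Calcb: ccgttgttacttgagaggaatgaaaccaag
Npy: ctccgctctgcgacactacatcaatctcat
Vip: ggataaaagagatatgtggcaaaaggattt
Crhbp: agctggagccatttgagctagaaacctcga
The stretch shown for Calca variant 2 runs from base 23 to base 52, and the others start at base 1. In the coordinates of the files, on mm9, the full probes lie at chr6:7512893-7512952 on the plus strand (Tac1), chr7:121775204-121775263 on the minus strand (Calca variant 2), chr7:121776948-121777007 on the minus strand (Calca variant 1) and chr7:121866534-121866593 on the plus strand (Calcb). The Npy probe is placed at chr6:49773743-49777505 on the plus strand, the Vip probe at chr10:4699238-4699297 on the minus strand and the Crhbp probe at chr13:96201903-96201962 on the minus strand. The 60 bases of the Npy probe extend over 3763 genomic bases and so come from more than 1 exon. Exon and UTR annotation on mm9 was not used here. No 2 of the Calca and Calcb probes shared a stretch longer than 5 bases. This held for the 2 Calca probes as well, so it cannot show whether a probe also binds RNA of the related gene. Such binding was not tested.

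Levels are given as log2 intensity after background correction and normalisation, and ratios are log2 of Rbpj-cKO over control, so that 1 means a doubling and a positive value means more RNA in Rbpj-cKO ureters. Levels are compared only within a probe. Of the 5 member genes that entered the fit, Tac1 and Crhbp were at least 1.5-fold higher in Rbpj-cKO ureters on both arrays, which holds for 0.205% of all features. Calca was at least 1.5-fold lower on both (0.433% of features), and Npy differed by at least 1.5-fold in opposite directions (1.04% of features). Whatever the size, Tac1 and Crhbp were higher on both arrays (21.7% of features), Calca and Calcb lower on both (19.7%), and Npy of opposite sign (58.6%). These shares are given for scale only, since the genes were chosen from this contrast. Levels in both Rbpj-cKO channels lay above both control channels for 2 of the 5 genes (14.9% of features), lay below both for 2 (12.5%), and overlapped for Npy.

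**Figure D1:**
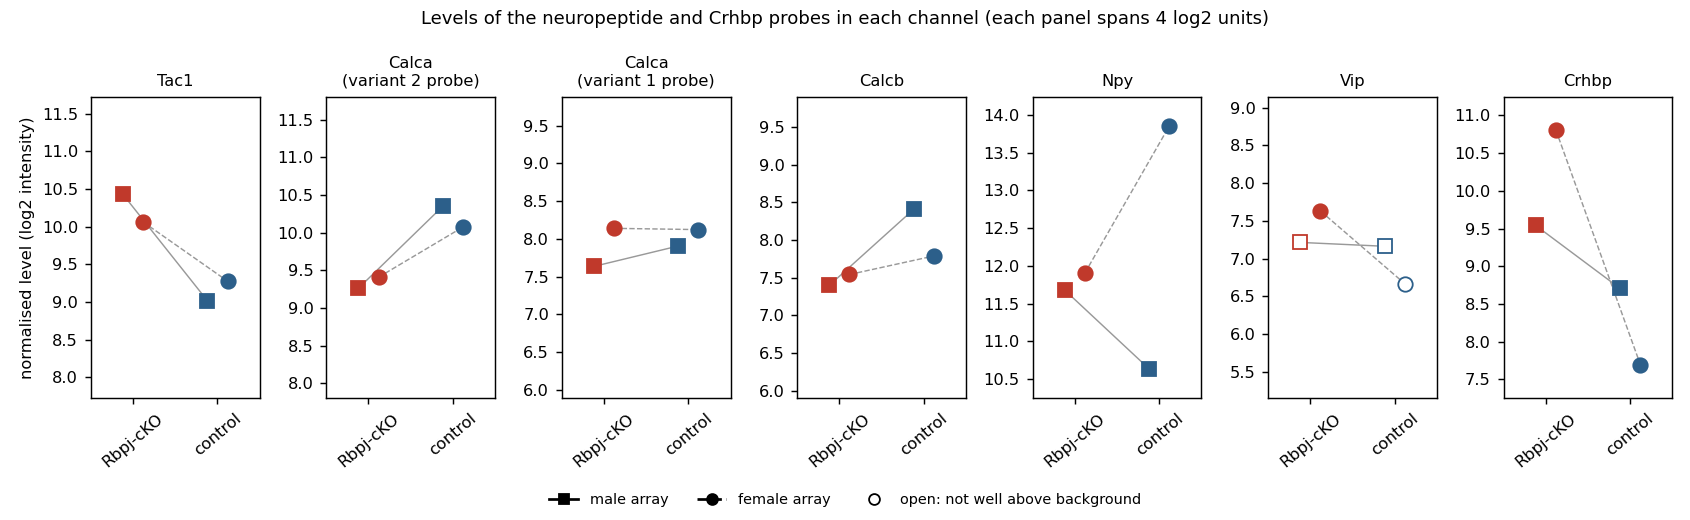
Normalised log2 intensity of the 7 member probes in each of the 4 channels, Rbpj-cKO at left and control at right within each panel, with a line joining the 2 channels of 1 array. Tac1 and Crhbp lie higher in both Rbpj-cKO channels, the Calca variant 2 probe and Calcb lie lower, and the 2 lines of Npy slope in opposite directions.

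Tac1 encodes the precursor of substance P and neurokinin A, peptides that contract ureteric smooth muscle. It had a log2 level of 10.43 on the male array and 10.06 on the female one in Rbpj-cKO ureters, against 9.02 and 9.28 in control ureters. Both Rbpj-cKO levels were above both control levels, and the higher Rbpj-cKO level was that of the male pair. The log2 ratio was 1.41 on the male array and 0.79 on the female one (mean 1.10, SD 0.44, n = 2), so that Rbpj-cKO ureters held 2.14-fold more Tac1 RNA. Before normalisation the spot read 1671 and 831 in Rbpj-cKO ureters, against 411 and 672 in control ureters, over local backgrounds of 100 and 34, against 32.5 and 92. Tac1 was rank 21 of 20994 features from the highest mean ratio down. Among the features with the most similar pairs of ratios were Six2, a factor of nephron progenitors (1.48 and 0.86), and Sostdc1, a secreted antagonist of BMP and Wnt signals (1.12 and 0.77), measured by distance over the 2 arrays only.

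Calca encodes calcitonin or the alpha form of calcitonin gene-related peptide, depending on splicing, and the peptide relaxes smooth muscle. The transcript variant 2 probe had log2 levels of 9.26 on the male array and 9.41 on the female one in Rbpj-cKO ureters, against 10.35 and 10.08 in control ureters. Here both Rbpj-cKO levels lay below both control levels. The log2 ratios were -1.09 on the male array and -0.67 on the female one and averaged -0.88 (SD 0.30, n = 2), which is 1.84-fold less signal in Rbpj-cKO ureters. The transcript variant 1 probe gave a different picture, with levels of 7.63 and 8.14 in Rbpj-cKO ureters, against 7.90 and 8.12 in control ureters. These levels overlapped, and the ratios were -0.27 and 0.02 (mean -0.13, SD 0.20). Both probes were well above background in all 4 channels, and the variant 2 probe, the brighter of them, represents the gene in the fit. Ratios closest to those of the variant 2 probe belonged to Synpo2, an actin-binding protein of muscle (-1.08 and -0.70), Aspn, an extracellular matrix proteoglycan (-1.05 and -0.69), and Tnnc1, the troponin C of slow and cardiac muscle (-1.06 and -0.70).

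Calcb, the gene of the beta form of calcitonin gene-related peptide, had log2 levels of 7.40 on the male array and 7.54 on the female one in Rbpj-cKO ureters, against 8.41 and 7.79 in control ureters. The Rbpj-cKO levels again lay below both control levels, by a narrower margin on the female array. The ratios were -1.01 and -0.25 (mean -0.63, SD 0.54, n = 2), so that the level was 2.01-fold lower in the male and 1.19-fold lower in the female Rbpj-cKO ureters. The mean thus rested mostly on the male array, where Calcb was rank 128 from the lowest ratio up, against rank 3854 on the female array. The Calcb spot was dim, at 1.89 and 3.21 times the local background in Rbpj-cKO ureters and at most 8.10 times in control ureters. Its mean ratio was -1.34 with Agilent's processed signals in place of the corrected mean signals. Lhx9, a LIM homeobox factor (-0.16 on the female array), Hapln1 (-1.09 and -0.38), a link protein of the matrix, and Thoc2 (-1.16 and -0.17), a subunit of the mRNA export complex THO, had the nearest pairs of ratios.

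Npy encodes neuropeptide Y, a vasoconstrictor released with noradrenaline. Its log2 levels were 11.68 on the male array and 11.91 on the female one in Rbpj-cKO ureters, against 10.63 and 13.86 in control ureters. The Rbpj-cKO levels were close to each other and lay between the 2 control levels. The ratio was 1.05 on the male array, 2.06-fold higher in Rbpj-cKO ureters, and -1.95 on the female array, 3.87-fold lower (mean -0.45, SD 2.12, n = 2). The female channel exceeded the male channel of the same genotype by 1.17-fold in Rbpj-cKO and by 9.35-fold in control ureters. The control values were thus far apart and the Rbpj-cKO values were not. Before normalisation the spot read 3981 and 3107 in Rbpj-cKO ureters, against 1386 and 16474 in control ureters. Npy was rank 10 from the lowest ratio up on the female array and rank 85 from the highest down on the male array. The nearest features were Cxcl13, a B cell chemokine (1.06 and -1.92), Vgf, a granin-like vesicle peptide precursor (1.04 and -2.25), and Chga, the vesicle protein chromogranin A (0.95 and -2.26).

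Vip encodes vasoactive intestinal peptide, a relaxant transmitter of autonomic nerves. It had log2 levels of 7.21 on the male array and 7.63 on the female one in Rbpj-cKO ureters, against 7.16 and 6.67 in control ureters. Only the female Rbpj-cKO channel was well above background, so the gene did not enter the fit, and no fold is given because the other 3 channels have only bounds. As measured, the ratios were 0.05 and 0.97, and the male one was -0.06 with median centring. The spots read 153 and 121 in Rbpj-cKO ureters, against 82.0 and 112 in control ureters. Negative control spots of the same channels had 95th percentiles of 137 and 67.2 in the Rbpj-cKO channels, against 59.8 and 133 in the control channels. In the female control channel the Vip spot thus read below the upper range of the negative controls.

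Crhbp encodes a secreted protein that binds corticotropin-releasing hormone and urocortin and limits their access to receptors. Its log2 levels were 9.54 on the male array and 10.81 on the female one in Rbpj-cKO ureters, against 8.70 and 7.69 in control ureters. Both Rbpj-cKO levels were above both control levels, and the distance was wider on the female array. The ratios were 0.84 and 3.11 (mean 1.97, SD 1.61, n = 2), which is 1.79-fold higher in male and 8.64-fold higher in female Rbpj-cKO ureters. By mean ratio Crhbp was rank 5 from the highest, with rank 3 on the female and rank 179 on the male array. The spot read 891 and 1399 in Rbpj-cKO ureters, against 326 and 236 in control ureters. The female control channel was red and the male one green, with a median signal over background of 6.38 and 13.3 over all probe spots. The Crhbp spot was dim in the female control channel, at 2.41 times a local background of 98. In the male control channel it stood at 9.06 times a local background of 36. The female fold therefore rests on a dim control value, and the female ratio was 3.72 with Agilent's processed signals. No feature had a pair of ratios close to that of Crhbp: the nearest, Btbd9 (1.28 and 2.52), lay 0.74 away, against 0.11 for Six2 from Tac1 and 0.04 for Synpo2 from Calca. None of the 4 ligands that Crhbp binds or that belong to their family was measurable, since Crh, Ucn and Ucn2 were well above background in no channel and Ucn3 only in the 2 female channels. The receptor gene Crhr2 was well above background in no channel, and Crhr1 in 1 Rbpj-cKO and 1 control channel.

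**Figure D2:**
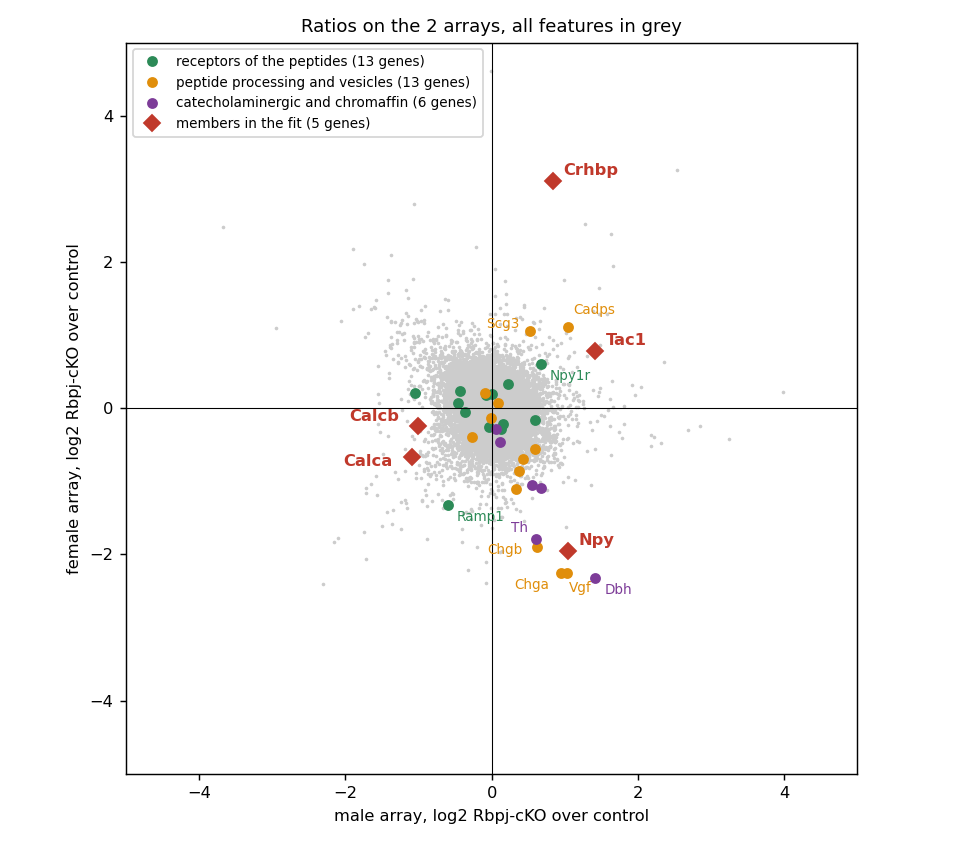
Log2 ratio of Rbpj-cKO over control on the male array (horizontal) and the female array (vertical) for all 20994 features, in grey, with the 5 member genes in the fit and the genes of 3 lists in colour. Tac1 and Crhbp lie at the upper right, Calca and Calcb in the lower left, and Npy lies at the lower right among catecholaminergic and vesicle genes.

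The receptors through which these peptides act showed no shared direction. Of 19 receptor genes listed, 13 were measured, and the others were Crhr1, Crhr2, Npy4r, Npy5r, Npy6r and Tacr1, the last being the substance P receptor. None passed limma's adjusted p of 0.05, against 0.124% of all features, and at an unadjusted p of 0.05 there were 1 higher and 1 lower (1.47% and 1.91% of all features, 3.38% in all). The median of the list's mean ratios was -0.08, beside 0.01 for all features. Levels in the Rbpj-cKO channels lay above both control levels for 2 of the 13 (14.9% of all features) and below both for 3 (12.5%).

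Ramp1, which with Calcrl forms the receptor for calcitonin gene-related peptide, was the lowest of them. Its log2 levels were 10.52 on the male array and 9.97 on the female one in Rbpj-cKO ureters, against 11.12 and 11.29 in control ureters, without overlap. The ratios were -0.60 and -1.33 (mean -0.96, SD 0.51, n = 2; limma adjusted p = 0.290). The other 2 Ramp1 probes, both dimmer, had mean ratios of -0.18 and 0.01, so the probes of this gene disagreed. Its partner Calcrl had -0.04 and -0.26 (mean -0.15), and Ramp2 and Ramp3, which turn Calcrl into adrenomedullin receptors, had mean ratios of 0.22 and -0.08. Crcp, a factor that couples the receptor to signalling, had a mean of 0.06.

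Npy1r, the receptor for neuropeptide Y on smooth muscle, was the highest, at log2 levels of 11.09 on the male array and 11.15 on the female one in Rbpj-cKO ureters, against 10.42 and 10.54 in control ureters. The levels did not overlap, and the ratios were nearly equal, at 0.68 and 0.60 (mean 0.64, SD 0.05, n = 2; limma adjusted p = 0.763). Npy2r, which acts mainly on nerve endings, had -1.05 and 0.20 and overlapped. The tachykinin receptors Tacr2 and Tacr3 had mean ratios of 0.10 and -0.20, and the receptors for vasoactive intestinal peptide, Vipr1 and Vipr2, had 0.28 and -0.03.

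**Figure D3:**
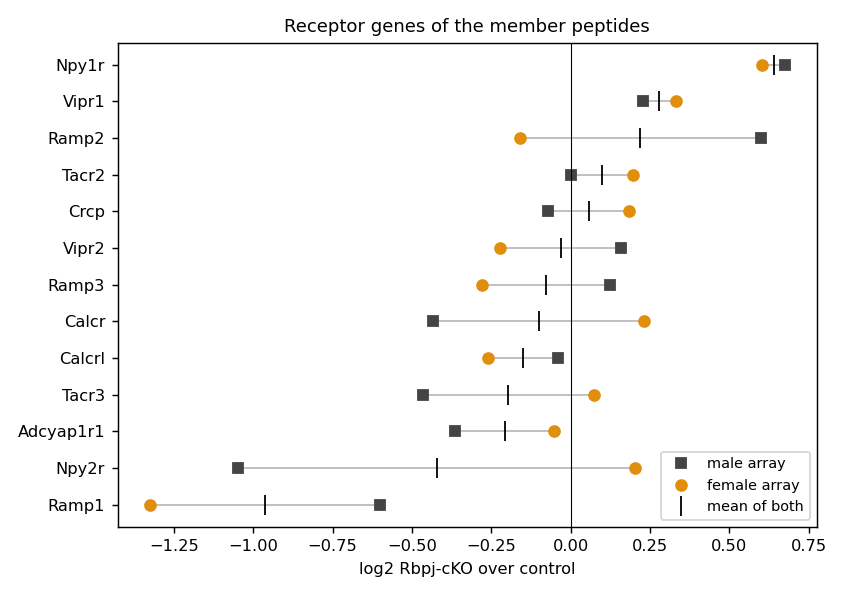
Log2 ratio of Rbpj-cKO over control for the 13 measured receptor genes, ordered by their mean, with the male array as a square, the female array as a circle and the mean as a tick. Npy1r lies at 0.68 and 0.60, Ramp1 at -0.60 and -1.33, and most others lie on both sides of 0 or near it.

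Other neuropeptide genes had a median of mean ratios near 0. Of the 21 measured, 12 differed in sign between the arrays, beside 58.6% of all features. Of 31 listed, 21 were measured, with a median of 0.03, and limma called none of them at an adjusted or an unadjusted p of 0.05. Higher on the male and lower on the female array, as Npy was, were 11 of the 21, against 29.3% of all features. With median centring of the arrays in place of loess, the same held for 11 of the 21, against 10384 of all 20994 features. Nts, the neurotensin precursor, was among the 11 with loess and had the highest male ratio of the list (1.11 and -0.48). It is named after its values were seen. The highest were Cartpt, the precursor of a peptide found in nerves and endocrine cells (0.96 and 0.03, mean 0.49), and Kiss1, the kisspeptin precursor (0.46 and 0.18, mean 0.32). The lowest were Gal, the galanin precursor (0.09 and -0.52, mean -0.21), and Ghrh, the growth hormone-releasing hormone (-0.09 and -0.31, mean -0.20).

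Genes for peptide processing and dense core vesicles had list medians of 0.43 (male) and -0.55 (female), over 13 measured of 15 listed. None passed limma's adjusted p. At an unadjusted p of 0.05, 2 were higher, Cadps and Scg3, beside 1.47% of all features. Cadps, a protein needed to ready dense core vesicles for release, had log2 levels of 11.54 on the male array and 11.75 on the female one in Rbpj-cKO ureters, against 10.49 and 10.64 in control ureters. The groups did not overlap, and the ratios were 1.05 and 1.11 (mean 1.08, SD 0.05, n = 2), a 2.12-fold higher level with a limma adjusted p of 0.0917. Scg3, a granin that sorts vesicle proteins, had 0.52 and 1.05 (mean 0.79, adjusted p = 0.491). The granins Chga and Chgb went the way of Npy, with 0.95 and -2.26 for Chga and 0.63 and -1.89 for Chgb.

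Markers of catecholaminergic neurons and chromaffin cells differed between the arrays in the direction seen for Npy. All 6 measured of the 7 listed were higher on the male array and lower on the female one, which holds for 29.3% of all features, and all 6 had their highest level in the female control channel, against 22.9% of features. With median centring of the arrays in place of loess, 5 of the 6 were higher on the male and lower on the female one. Under that setting the same held for 10384 of all 20994 features. With the 4 other ways of computing the signal, all 6 were higher on the male and lower on the female array. The summed level of the list was 14364 in male and 14232 in female Rbpj-cKO ureters, against 11148 in male and 35644 in female control ureters. Th, tyrosine hydroxylase, had 0.61 and -1.79, and Dbh, dopamine beta-hydroxylase, had 1.42 and -2.32. The log2 levels of Dbh were 10.79 and 10.97 in Rbpj-cKO ureters, against 9.37 and 13.30 in control ureters, so the female control RNA stood highest, as for Npy. Ddc and Slc6a2 had -0.17 and -0.11 on average. Pnmt, which makes adrenaline, was well above background only in the female Rbpj-cKO channel. None of the 6 genes passed limma's adjusted p, and none had an unadjusted p under 0.05. The part of such cells in the Npy values was not tested.

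**Figure D4:**
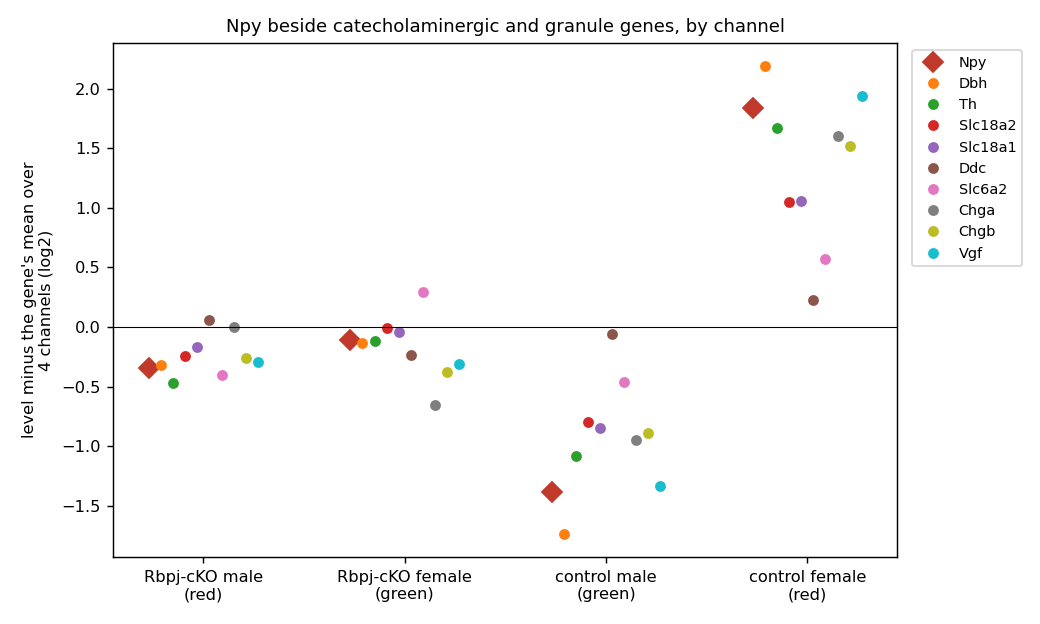
Normalised log2 level minus the gene's mean over the 4 channels (vertical) for Npy, the 6 measured catecholaminergic genes and the vesicle genes Chga, Chgb and Vgf, in the Rbpj-cKO channels (left) and the control channels (right). The female control channel holds the highest value of each of these genes.

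Of the 23 pan-neuronal genes, 12 differed in sign between the arrays, beside 58.6% of all features. Of the 23 genes, 11 were higher on the male and lower on the female array (29.3% of all features), and 11 had their highest level in the female control channel (22.9% of features). With median centring, 11 of the 23 were higher on the male and lower on the female array, beside 10384 of all 20994 features. The summed level of the 23 pan-neuronal genes, all measured, was 54964 on the male array and 50746 on the female one in Rbpj-cKO ureters, against 51630 and 58954 in control ureters. Their median ratio was -0.03 (male 0.23, female -0.22), with the sign turned, at 0.04, under Agilent's processed signals. None passed limma's adjusted p, and at an unadjusted p of 0.05 there were 2 higher and 2 lower (1.47% and 1.91% of all features). Syt1, a calcium sensor of vesicle release, was highest (0.94 and 0.56, mean 0.75, adjusted p = 0.504), and Nefm, the medium neurofilament, was lowest (-0.05 and -1.20, mean -0.63). Among sensory neuron markers, the cell type of the peptides of Tac1 and Calca, 4 of 11 were measured, with a median of -0.01. Trpv1, Trpa1, Scn9a, Scn10a and Scn11a, the channels that define pain-sensing neurons, were well above background in no channel. The summed level of the measured sensory markers was 2339 and 1954 in Rbpj-cKO ureters, against 1958 and 1871 in control ureters. Markers of cholinergic and nitrergic neurons had 3 of 4 measured, a median of -0.14 and summed levels of 782 and 800 in Rbpj-cKO ureters, against 869 and 832 in control ureters. The adrenal cortex list, examined because chromaffin cells lie in the adrenal gland, had 6 of 8 measured, a median of -0.06 and summed levels of 2306 and 3682 in Rbpj-cKO ureters, against 2941 and 2657 in control ureters. None of the genes of these 3 lists passed limma's test at an adjusted or unadjusted p of 0.05, and the part of nerve and adrenal cells in the member ratios was not tested.

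Promoters were searched for TGGGAA, the core of the motif bound by RBPJ, on both strands (TTCCCA on the other), from 250 bases before to 50 bases after the gene start. Of the 6 genes, 5 had an entry in the RefSeq promoter table for GRCm38.p6, and the motif was found in 0 of them, against 25.6% of all 32851 promoters. The letters were thus not in these windows of 300 bases. No reading on RBPJ binding follows from that.

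**Figure D5:**
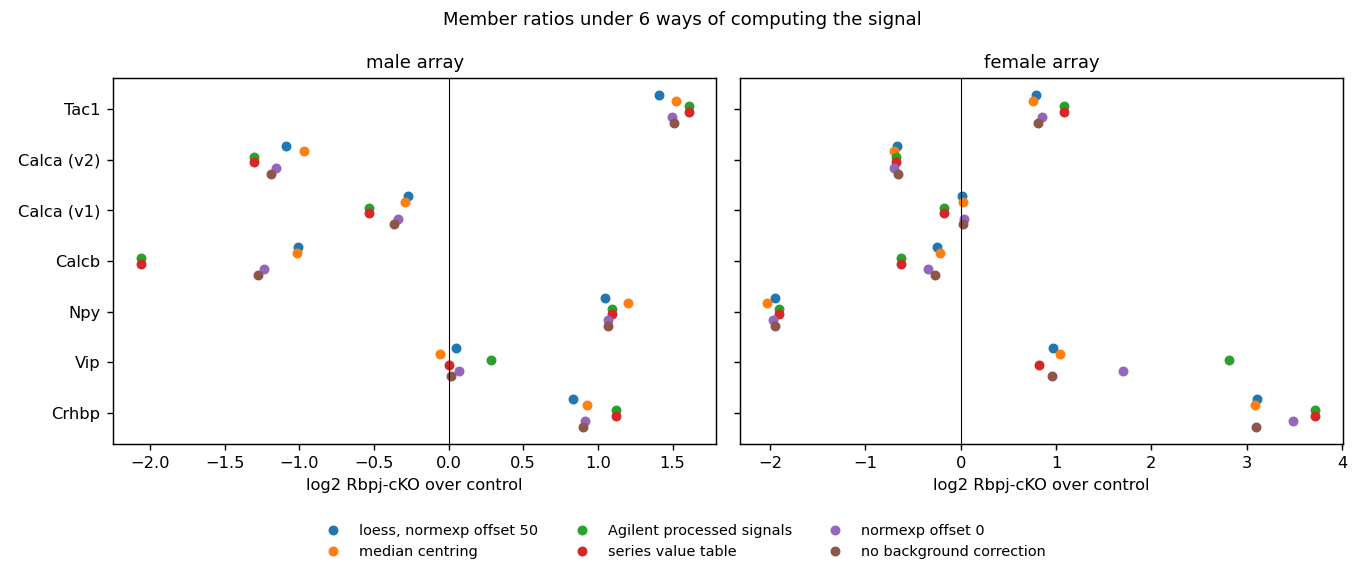
Log2 ratio of Rbpj-cKO over control for the 7 member probes on the male array (left panel) and the female array (right panel), with a colour for each of 6 ways of computing the signal. The points of Tac1, the Calca variant 2 probe, Calcb, Npy and Crhbp keep their side of 0 on each array. Vip and the Calca variant 1 probe cross 0 on 1 array. Vip on the female array (0.82 to 2.82) and Calcb on the male array range widely.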

How the data were processed

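Per the labels' protocols, total RNA of dissected ureters was amplified and labelled with AlexaFluor555 or AlexaFluor647, and each of 2 arrays held Rbpj-cKO and control RNA of one sex. Samples were grouped by the genotype labels. Spot intensity in the deposited scanner files came from Agilent Feature Extraction 10.7.3.1, a version named in the submitters' processing notes. Processed signals are background-subtracted, dye-normalised intensity and LogRatio is their red over green on a log10 scale, per the file headers. The deposited series table holds a score per probe, which matched the signed linear fold (Rbpj-cKO to control) of the processed signals within 0.001 on the log2 scale for 99.6% (male) and 99.8% (female) of single-spot probes well above background. Its column medians were 1, and no source used here states its centring or its handling of dim spots.

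Mean signals were corrected with normexp (offset 50) and normalised by loess array by array (control spots weighted 0) in limma 3.58.1 (R 4.3.3). Outlier spots were left out. Ratios were turned to Rbpj-cKO over control. Channel levels were aligned with Aquantile, and summed levels of a list are on the linear scale. A probe was kept if both Rbpj-cKO channels or both control channels were well above background, and a gene was represented by its brightest probe. Of 39429 probes, 26406 were named through their accession in the RefSeq gene table and 13023 by the name in the files. Features were tested with lmFit and eBayes (1 residual and 10.3 prior degrees of freedom), two-sided, with Benjamini-Hochberg adjustment and a threshold of 0.05. P-values rest on 2 arrays, not on a spread between embryos, and the number of arrays limits the precision. The test was first checked on simulated data.

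The members and the gene lists were chosen with earlier results of these data known, so no member is tested. Named are all members, all measured receptors and CRH family genes, the 2 highest and 2 lowest genes of every other list described by gene, and the 3 features nearest to each member. Of the genes this rule or the lists name, 2 are not reported here. Normalisation, background, dim-probe, probe-choice and prior settings were varied.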

Additional observations from a re-analysis of the deposited data

Results flagged for a closer look

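Some values differed in sign between the male and the female array, with 1 array a sex, so none of these differences was tested and sex cannot be told apart from dye and from the individual RNAs. The difference of the log2 ratios, male minus female, was 2.997 for Npy and -0.29 for the Calca variant 1 probe. Among the listed genes that differed at least 1.5-fold in opposite directions, which holds for 1.04% of all features, it was 3.21 for Chga, 2.52 for Chgb, 2.40 for Th, 3.74 for Dbh, 3.28 for Vgf, 1.77 for Slc18a1, 1.27 for the neuronal filament gene Ina and 2.64 for Lrrn4, a mesothelial marker. Hsd3b1, a steroid-making enzyme, went the other way, at -2.55. Slc18a1, Ina and Hsd3b1 are named after their values were seen. For the list medians of opposite sign, it was 1.65 for catecholaminergic and chromaffin markers, 0.98 for peptide processing and vesicle genes, 0.52 for mesothelial markers, 0.45 for pan-neuronal genes, 0.18 for other neuropeptides and -0.11 for the receptors.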

How the results depend on the processing

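Each array is a pair of Rbpj-cKO and control RNA, so the limma test on the ratios is already paired by array. No further pairing was possible because the labels give 1 replicate number an array. Of 36 member values recomputed on both arrays, 30 moved by less than the spread (SD) between the arrays. That spread was widest for Npy (SD 2.12) and Crhbp (SD 1.61), so the count says little on how these genes depend on the processing. Processed signals and the series table, counted separately, gave the same mean ratio for every member probe but Vip. With processed signals and with the series table, the mean log2 ratio was -1.34 for Calcb and -0.35 for the Calca variant 1 probe. It was 1.55 for Vip with processed signals and -0.50 for Calca as the mean of its probes. Without either replicate a single array remained and no test could be made: the ratios then ranged from 0.79 to 1.41 for Tac1, -1.09 to -0.67 and -0.27 to 0.02 for the Calca probes, -1.01 to -0.25 for Calcb, -1.95 to 1.05 for Npy, 0.05 to 0.97 for Vip and 0.84 to 3.11 for Crhbp. Of all features, 26 passed limma's adjusted p, against 0 with median centring (lowest adjusted p 0.162), processed signals (0.0534), the series table (0.0801) or no filter on dim probes (0.0521), 10 when the probes of a gene were averaged, 41 when eBayes let the prior variance follow intensity and 69 with no background correction. The causes were not tested. Of 121 list genes, limma called 0 at an adjusted p of 0.05, beside 0.124% of all features. At an unadjusted p of 0.05 there were 13, beside 3.38% of all features. With median centring, processed signals or no filter, 0 passed the adjusted p, and 6, 16 and 14 had an unadjusted p under 0.05. The share of all features under those settings is not given here. Dim spots such as Vip, Calcb and the female control spot of Crhbp limit what the arrays can show.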

Other observations

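Values of glial, muscle and epithelial markers complete the cell type lists. Of 9 Schwann cell and glial genes, 7 were measured and 5 of them were lower on both arrays (4 with median centring), beside 19.7% of all features, with a median of -0.23 and no gene past limma's adjusted or unadjusted p of 0.05. Their summed level was 22992 and 26731 in Rbpj-cKO ureters, against 31215 and 30432 in control ureters. Of 8 smooth muscle genes, all measured, 7 were lower on both arrays (5 with median centring), beside 19.7% of all features, with a median of -0.32. None passed limma's adjusted p, and 2 were lower at an unadjusted p of 0.05, beside 1.91% of all features. Of 10 urothelial genes, 9 were higher on both arrays (median 0.21), beside 21.7% of all features, but 1 with median centring. That setting moved the median of all features to 0.17 on the male array and -0.09 on the female one. In the main setting no urothelial gene passed the adjusted p. At an unadjusted p of 0.05, 1 was higher, beside 1.47% of all features. The 6 mesothelial genes had a median of 0.25. Of the 2 measured kidney genes, Six2 was higher on both arrays (mean 1.17) and Cited1 lower on both (mean -0.59), each at an unadjusted p under 0.05 and neither past limma's adjusted p.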
